A study of Mus musculus with 21 samples.

Results

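The 38 genes described here build, switch on or mark the motile cilium, the beating, hair-like organelle of airway epithelial cells. They were given as a list of names, and each was read from the probe set annotated to its symbol alone, or from the brightest of them on average where a gene had several. All 38 were found among the 19938 genes measured, 33 of them with 1 probe set and 5 with several. The study measured RNA of the right lung of male C57BL/6 mice on 21 Affymetrix arrays, in a time course around left pneumonectomy, the surgical removal of the left lung, after which the remaining right lung grows. Its 7 conditions were mice at day 0, before any surgery, mice 3, 7, 14, 28 and 56 days after left pneumonectomy, and mice 56 days after a sham operation. A condition held 3 arrays, of which 1 was hybridised with medial lobe RNA, 1 with cardiac lobe RNA and 1 with RNA from all of the right lung. By the labels no group carried an engineered allele or was given a drug, and no age is stated for the mice. The series title speaks of phases of lost differentiation and renewed development, and the comparisons below ask where the cilium genes stood along that course.

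A motile cilium is built on an axoneme, a ring of microtubule doublets around a central pair of microtubules. Outer and inner dynein arms on the doublets are its motors, radial spokes and nexin links hold and regulate them, and the transcription factor Foxj1 together with RFX factors switches on the genes of the structure. In the lung these genes mark the multiciliated cells of the conducting airways, which move mucus and do not line the alveoli.

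Values are log2 intensities, so a difference of 1 is a doubling, and levels of different genes come from different probes and are not ranked against each other. The markers of whole lung were all present, among them Sftpc of alveolar type II cells at a mean of 13.36, Scgb1a1 of club cells at 13.29, Ager of alveolar type I cells at 12.34 and Pecam1 of endothelium at 10.71. The cilium genes had a median level of 7.87, and 31 of 38 lay above the median gene at 6.98. The day 7 cardiac lobe array and the day 56 pneumonectomy whole lung array stood apart from the others of their regions. They had the lowest interquartile ranges, 3.341 and 3.132, and the highest mean levels of 59 small RNA genes, 8.153 and 9.839. Counts are therefore also given without this pair of arrays, and without the 2 arrays with the highest and the lowest mean of the cilium genes, the day 0 medial lobe and the day 7 cardiac lobe, wherever that changed them. Whether the medial lobe, cardiac lobe and whole lung of a condition are separate animals is not stated in the labels. The p-values then measure only the spread between these samples, that is, how far a change differed between regions, which may be technical.

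The level of the cilium genes was highest at day 0. The mean of the 38 genes was 8.44, 7.91 and 8.28 for the medial lobe, cardiac lobe and whole lung at day 0. In the same order of regions it was 7.70, 7.78 and 7.99 at day 3 and 7.96, 7.09 and 7.94 at day 7. It was 7.88, 7.88 and 7.83 at day 14, 8.02, 7.78 and 8.24 at day 28, 7.99, 7.88 and 7.57 at day 56 and 8.05, 7.72 and 7.75 at day 56 after sham. In each region the day 0 array had the highest mean, and the day 7 cardiac lobe stood lowest of all 21 arrays. In the cardiac lobe the lead of day 0 was small, at 7.905 against 7.885 at day 14 and 7.882 at day 56. There 19 of 38 genes lay below day 0 at day 14 and 23 at day 56. In that lobe 10 genes were highest at day 0 and 11 at day 14. The sham lungs were below day 0 too, in all 3 regions. For 34 of 38 genes the day 0 mean was the highest of the 7 conditions, and for 25 the day 7 mean was the lowest. The day 7 cardiac lobe held the lowest value of all 21 arrays for 32 genes, and the day 0 medial lobe the highest for 26. In bulk tissue, fewer ciliated cells and less RNA per ciliated cell cannot be told apart.

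**Figure D1:**
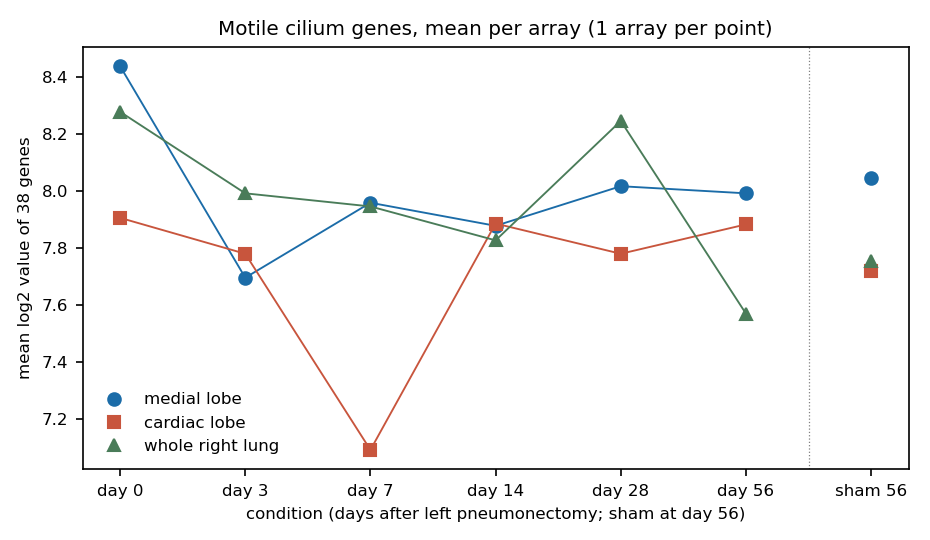
Mean log2 value of the 38 cilium genes (vertical axis) in each of the 21 arrays, by condition (horizontal axis) and region (colour and symbol), with 1 array per point and lines joining the arrays of a region along the pneumonectomy course. Day 0 is the highest point of each region, though barely so in the cardiac lobe (7.91 against 7.88 at day 14). The day 7 cardiac lobe, at 7.09, is the lowest point of all.

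Most of the genes shared this profile. After each gene was centred within its region, its correlation with the mean of the other cilium genes over the 21 arrays had a median of 0.866, and 27 genes exceeded 0.8. The points share their arrays, and with them any difference in airway content or RNA quality, so the correlation is a description. The highest were Tekt4 (0.970), a tektin filament protein, Spag17 (0.968), a central pair protein, Iqub (0.963), of the radial spoke, and Dnali1 (0.962), an inner arm light chain. Mns1 (0.143), Rfx2 (0.213), Lrrc23 (0.414) and Spag6 (-0.358) did not follow the rest, and Foxj1 reached 0.559. Without the 2 arrays at the extremes of the cilium mean the median over 19 arrays was 0.798, and 19 genes exceeded 0.8.

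**Figure D2:**
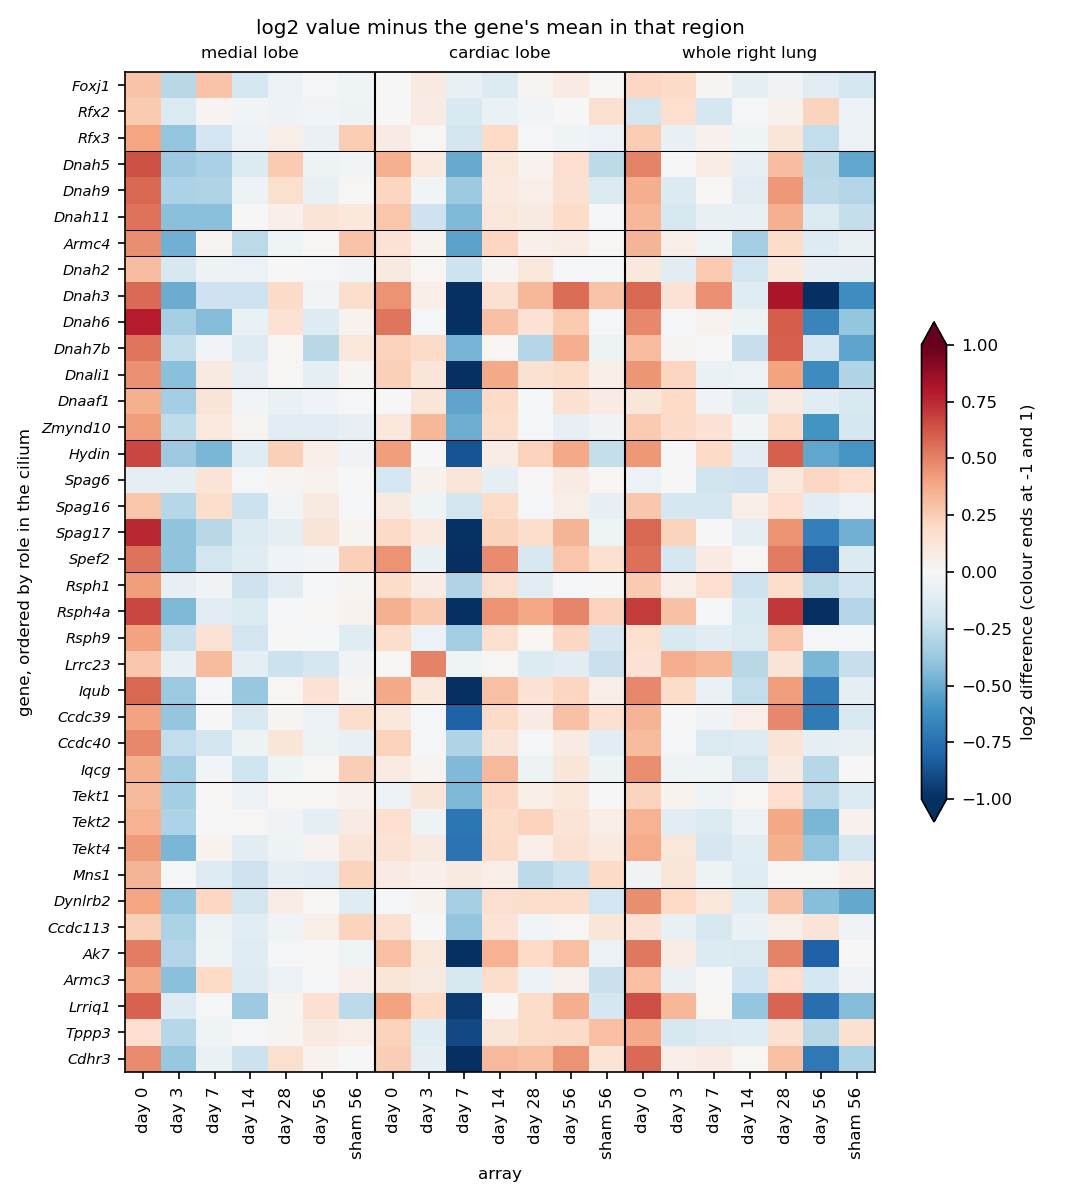
Log2 value of each of the 38 genes (rows, ordered by role) in each of the 21 arrays (columns, by region and condition) minus the mean of that gene over the 7 arrays of the region, with colours ending at -1 and 1. In the day 7 cardiac lobe 36 of 38 genes lie below their region's mean, and in the day 0 arrays 1, 3 and 3 genes do.

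At day 3 after pneumonectomy 3 cilium genes were lower than at day 0 by limma's moderated test, with an adjusted p under 0.05 over all genes, and none was higher. They were the outer dynein arm genes Dnah11 and Dnah9 and the ruler gene Ccdc40. Of all genes 2.73% were called lower. The median difference of the 38 was -0.41 against 0.01 for all genes, and 35 were negative. Of the 38, 17 had an unadjusted p under 0.05, against 19.6% of all genes. In 29 genes each region lay below its own day 0 array, against 24.1% of all genes, and in 11 the 3 arrays did not overlap with those of day 0, against 12.1% of all genes. Without the 2 arrays that stood apart 16 of the 38 were called lower at day 3, 9 without the day 7 cardiac lobe alone, and 1, Dnah11, without the day 0 medial lobe. The share of all genes called in either direction, 6.7% with all arrays, was 14.2%, 10.3% and 5.13% in these fits, so it moved with the count.

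Dnah11, a heavy chain of the outer dynein arm, read 7.57, 7.13 and 7.36 in the medial lobe, cardiac lobe and whole lung at day 0 and 6.61, 6.64 and 6.87 at day 3. All 3 day 3 arrays were below all day 0 arrays. The difference was -0.64 ± 0.13 (standard error; adjusted p = 0.00746), a 1.56-fold lower level. Dnah9, another outer arm heavy chain, read 8.28, 7.69 and 8.29 at day 0 and 7.39, 7.45 and 7.78 at day 3. Each region was lower, but the day 3 whole lung lay above the day 0 cardiac lobe. The difference was -0.55 ± 0.14 (adjusted p = 0.0295), and the call was lost without the day 0 medial lobe, the day 0 whole lung, the day 3 medial lobe or the day 3 whole lung. Ccdc40, which with Ccdc39 forms the molecular ruler that sets the spacing of dyneins and spokes, read 8.04, 7.62 and 7.90 at day 0 and 7.32, 7.37 and 7.57 at day 3, with no overlap. Its difference was -0.44 ± 0.09 (adjusted p = 0.00894), and the call was lost without the day 0 medial lobe.

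At day 7, 8 of the 38 genes were lower than at day 0 and none was higher, while 4.97% of all genes were called lower. The 8 were the outer arm heavy chains Dnah5, Dnah9 and Dnah11, the inner arm heavy chain Dnah6, the central pair gene Hydin, Ccdc40, Ccdc113 and Tppp3. The median difference was -0.54 against 0.03 for all genes, and 36 were negative. An unadjusted p under 0.05 was held by 28, all of them lower, against 29.6% of all genes in either direction. In 32 genes each region lay below its own day 0 array, against 24.5% of all genes, and in 6 there was no overlap between the arrays, against 12.3% of all genes. The count turned on single arrays. It was 2, Ccdc40 and Dnah11, without the day 7 cardiac lobe, without the day 0 medial lobe or without the day 0 whole lung. It was 4 without the day 0 cardiac lobe and 5 without the sham cardiac lobe, but 13 without the day 7 medial lobe, 17 without the day 56 pneumonectomy whole lung and 21 without the day 7 whole lung. Of all genes 8.69% were called in either direction with all arrays, 2.46% to 5.39% in the 3 fits with 2 cilium genes, 2.74% and 7.31% in those with 4 and 5, and 7.81%, 13.9% and 19.5% in those with 13, 17 and 21. The cilium count was 4 when the 2 arrays that stood apart were left out, Ccdc40, Dnah11, Dnah6 and Tppp3. The median difference was then -0.32, and 5.28% of all genes were called in either direction. Without the 2 arrays at the extremes of the cilium mean limma called none, and 6 had an unadjusted p under 0.05. The median was -0.22 in that fit, and 1.75% of all genes were called in either direction.

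The outer arm heavy chains drive the beat, and all 3 on the list were called at day 7. Dnah5 read 9.09, 8.53 and 9.28 at day 0 and 8.13, 7.67 and 8.87 at day 7. Each region was below its own day 0 array, while the day 7 whole lung lay above the day 0 cardiac lobe. The difference was -0.75 ± 0.17 (adjusted p = 0.0172), and the call was lost without the day 0 medial lobe, the day 0 whole lung or the day 7 cardiac lobe. Dnah9 read 7.40, 7.11 and 7.93 at day 7, again with the whole lung inside the day 0 range. Its difference was -0.61 ± 0.14 (adjusted p = 0.0189), lost as a call without the same 3 arrays or the day 7 medial lobe. Dnah11 read 6.61, 6.41 and 6.95 at day 7, all below day 0. The difference was -0.70 ± 0.13 (adjusted p = 0.00713), and the call held when any 1 array was left out. In a fit of only the 6 arrays of day 7 and day 0 it was lost (adjusted p = 0.106), as it was without the 2 arrays at the extremes of the cilium mean (adjusted p = 0.136). Armc4, which docks the outer arm on its doublet, read 6.86, 6.24 and 6.56 at day 0 and 6.41, 5.56 and 6.18 at day 7 and was not called, at -0.50 ± 0.18 (adjusted p = 0.0921).

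Of the inner arm genes Dnah6 was called. It read 9.27, 8.65 and 9.22 at day 0 and 8.05, 6.90 and 8.77 at day 7, the cardiac lobe being the lowest of the 6 arrays and the whole lung lying above the day 0 cardiac lobe. The difference was -1.14 ± 0.27 (adjusted p = 0.0202), a 2.2-fold lower level. It was -0.75 and not called without the day 7 cardiac lobe, and the call was also lost without any 1 of the 3 day 0 arrays. Dnah3, another inner arm heavy chain, read 10.01, 9.25 and 9.89 at day 0 and 9.24, 6.95 and 9.77 at day 7. The cardiac lobe stood far below the other 2 regions, and the difference of -1.06 ± 0.49 was not called (adjusted p = 0.161). Dnali1 (-0.75 ± 0.28), Dnah7b (-0.53 ± 0.23) and Dnah2 (-0.16 ± 0.10) were not called either. Dnah7b has near-identical relatives, Dnah7a and Dnah7c, so the copy that its probe set reads is uncertain. A dimmer second probe set of Dnah7b, at a mean level of 4.01, differed by 0.21 at day 7, the other way. The factors that assemble dynein arms in the cytoplasm, Zmynd10 (-0.34 ± 0.18) and Dnaaf1 (-0.30 ± 0.17), were not called.

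Hydin, a large protein of the central pair, read 8.86, 8.42 and 9.04 at day 0 and 7.74, 7.14 and 8.80 at day 7. The differences within regions were -1.12, -1.28 and -0.24, so the whole lung differed least and the groups overlapped. The fitted difference was -0.88 ± 0.25 (adjusted p = 0.0387), and -0.60 without the day 7 cardiac lobe. The call was lost in 7 of 21 cases when 1 array was left out and in 5 of 10 other settings. Spag17, needed for central pair assembly, read 7.92, 7.06 and 7.51 at day 0 and 6.89, 5.88 and 6.94 at day 7. These groups did not overlap, and the difference of -0.93 ± 0.29 missed the threshold (adjusted p = 0.0552), as did that of Spef2, -0.92 ± 0.30 (adjusted p = 0.0678), whose groups did not overlap either. Spag16, another central pair gene, was not called at -0.27 ± 0.12. Spag6 read 5.71, 5.61 and 5.84 at day 0 and 5.93, 5.90 and 5.69 at day 7, a difference of 0.12 ± 0.09 that was not called. Its near-identical relative Spag6l has a probe set of its own, and which copy each probe set reads is uncertain.

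Radial spokes relay signals from the central pair to the dynein arms, and none of the 5 spoke genes was called. Rsph4a, of the spoke head, read 10.21, 9.44 and 9.96 at day 0 and 9.44, 6.92 and 9.24 at day 7. The cardiac lobe alone was 2.52 below its day 0 array (log2 difference -2.52), against -0.77 and -0.71 in the medial lobe and whole lung. The fitted difference was -1.33 ± 0.49 (adjusted p = 0.0949). Iqub gave -0.90 ± 0.29, Rsph9 -0.35 ± 0.13, Rsph1 -0.34 ± 0.14 and Lrrc23 0.06 ± 0.15. Among the ruler and nexin link genes Ccdc40 was called again. It read 7.38, 7.09 and 7.44 at day 7, below all day 0 arrays, with a difference of -0.55 ± 0.09 (adjusted p = 0.00316) that stayed called when any 1 array was left out. It was not called in the fit of only the 6 arrays (adjusted p = 0.0891) or without the 2 arrays at the extremes of the cilium mean (adjusted p = 0.078). Ccdc39 (-0.57 ± 0.24) and Iqcg (-0.47 ± 0.17) missed the threshold. The tektins Tekt4 (-0.61 ± 0.21), Tekt2 (-0.57 ± 0.17) and Tekt1 (-0.32 ± 0.15), filament proteins of the doublets, and Mns1 (-0.16 ± 0.11), a protein inside them, were not called.

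Of the remaining ciliated cell genes Tppp3 and Ccdc113 were called. Tppp3, a microtubule-binding protein abundant in ciliated cells, read 12.38, 12.27 and 12.36 at day 0 and 12.17, 11.14 and 11.85 at day 7. The groups did not overlap, with the cardiac lobe lowest, and the difference was -0.61 ± 0.18 (adjusted p = 0.0433). The call was lost in 15 of 21 cases when 1 array was left out, and the difference was -0.30 without the day 7 cardiac lobe. Ccdc113, which encodes a coiled-coil protein of the cilium, read 7.63, 7.31 and 7.53 at day 0 and 7.35, 6.77 and 7.23 at day 7, the medial lobe overlapping with day 0. Its difference was -0.38 ± 0.11 (adjusted p = 0.0383). The call was lost in 6 of 21 cases when 1 array was left out and in 7 of 10 other settings. Ak7, an adenylate kinase of the cilium, gave -0.91 ± 0.29, Cdhr3, a cadherin of ciliated cells, -0.87 ± 0.32, Lrriq1 -0.86 ± 0.28, Dynlrb2, a dynein light chain, -0.29 ± 0.20 and Armc3 -0.25 ± 0.14. None of these was called, and Lrriq1 was below day 0 without overlap.

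None of the 3 transcription factors was called at day 7. Foxj1, the master regulator of motile ciliogenesis, read 8.94, 8.45 and 8.77 at day 0 and 8.94, 8.37 and 8.59 at day 7. The medial lobes were level, the groups overlapped, and the difference was -0.09 ± 0.12 (adjusted p = 0.625). It was 0.09 without the 2 arrays at the extremes of the cilium mean, so its direction was not settled. At day 3 Foxj1 read 8.38, 8.54 and 8.75, below day 0 in the medial lobe, above it in the cardiac lobe and level with it in the whole lung, with a difference of -0.16 ± 0.12, and after sham it read 8.61, 8.45 and 8.39. Rfx2 gave -0.13 ± 0.11 and Rfx3 -0.35 ± 0.13 (adjusted p = 0.0867) at day 7. The difference between the factors and the structural genes was not tested.

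**Figure D3:**
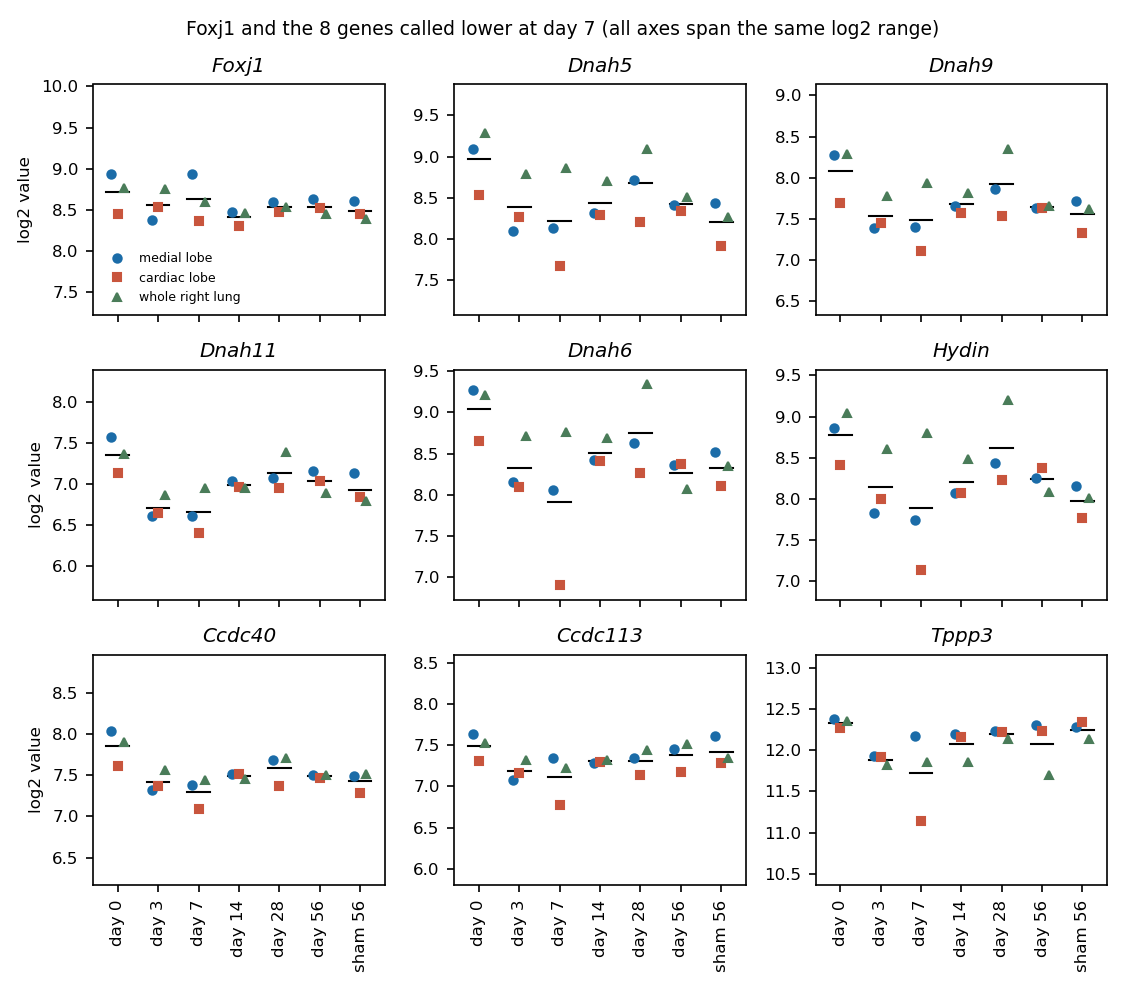
Log2 value (vertical axis) of Foxj1 and of the 8 genes called lower at day 7, in every array by condition (horizontal axis), with colour and symbol for the region and a bar at the mean of 3 arrays. The day 7 cardiac lobe reads 6.90 for Dnah6 and 7.14 for Hydin, the lowest points of their panels, whereas Foxj1 at day 7 lies between 8.37 and 8.94.

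RFX factors and Foxj1 bind known letters, so the promoters were searched. RefSeq windows of 250 bases before to 50 after a start site were searched on both strands for GTTGCC, the core letters of the X-box bound by RFX factors, and for TGTTTAC, a forkhead core; neither contains the other. Of the 38 genes 31 had a window, and those without one were Foxj1, Dnah3, Armc4, Rsph1, Rsph4a, Dnaaf1 and Tppp3. GTTGCC was found in 18 of 31 genes (58.1%) against 3821 of the 27025 genes in the table, or by window in 55.9% of 34 against 12.5% of 32851, and TGTTTAC in 2 of 31 (6.45%), Iqub and Ak7, against 4.05% of all genes. In 14 genes GTTGCC lay before the start site. These 14 had a median difference of -0.35 at day 7 with 2 called, and the 17 without it there -0.61 with 5 called. Only these exact letters were searched. Of the 17, Dnah6 holds the near match gttgctaagcaac before its start site and Tekt4 gttgctcagcaac, so the 17 may still hold X-boxes. The 100 bases before the start site are shown 5′ to 3′ on the gene's strand (GRCm38.p6) for 7 genes, to set the match beside the measured profile, with GTTGCC or its reverse complement in capitals. Hydin (chr8:110266877-110266976 on the plus strand) and Ccdc113 (chr8:95534000-95534099 on the plus strand) were called at day 7 and hold a match close to the start site. Tekt1 (chr11:72361883-72361982 on the minus strand) and Cdhr3 (chr12:33092876-33092975 on the minus strand) hold matches and were not called. Spag6 (chr2:18698922-18699021 on the plus strand) and Mns1 (chr9:72438429-72438528 on the plus strand) hold a match and did not follow the shared profile. Dnah5 (chr15:28203666-28203765 on the plus strand) was called and has no match in this stretch. A match is a description of letters, not a measured binding site.
Hydin: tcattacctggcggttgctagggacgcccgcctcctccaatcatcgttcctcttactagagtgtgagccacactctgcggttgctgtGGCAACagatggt
Ccdc113: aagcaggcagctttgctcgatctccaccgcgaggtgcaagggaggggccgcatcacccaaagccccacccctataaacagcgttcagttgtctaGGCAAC
Tekt1: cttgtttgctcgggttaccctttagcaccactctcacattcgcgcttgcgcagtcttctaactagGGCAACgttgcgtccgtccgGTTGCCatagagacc
Cdhr3: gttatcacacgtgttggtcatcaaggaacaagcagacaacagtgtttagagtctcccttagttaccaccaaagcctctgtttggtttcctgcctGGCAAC
Spag6: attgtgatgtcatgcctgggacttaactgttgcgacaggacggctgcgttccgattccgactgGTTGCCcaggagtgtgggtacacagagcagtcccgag
Mns1: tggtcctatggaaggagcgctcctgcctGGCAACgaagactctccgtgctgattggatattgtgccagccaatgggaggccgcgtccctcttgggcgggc
Dnah5: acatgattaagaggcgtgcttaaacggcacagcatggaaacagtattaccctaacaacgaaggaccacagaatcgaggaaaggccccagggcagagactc

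From day 14 on no cilium gene was called against day 0. At day 14 limma called none of the 38 (1.2% of all genes), all 38 were negative and the median difference was -0.32. An unadjusted p under 0.05 was held by 12, against 11% of all genes. Ccdc40 (-0.36 ± 0.09, adjusted p = 0.0795) and Dnah5 (-0.53 ± 0.17, adjusted p = 0.195) had the smallest p. With the 2 arrays that stood apart left out, 3 genes were called lower at day 14, Ccdc40, Iqub and Lrriq1. In that fit 4.07% of all genes were called in either direction. At day 28 limma called none (0% of all genes), and 3 had an unadjusted p under 0.05 (7.22% of all genes). The median of -0.19 was the one nearest to day 0. Hydin read 8.43, 8.23 and 9.20 and Dnah6 8.63, 8.26 and 9.34 at day 28, both with the whole lung above all day 0 arrays. The smallest p belonged to Ccdc40 (-0.27 ± 0.09, adjusted p = 0.585) and Rsph1 (-0.30 ± 0.14, adjusted p = 0.683). At day 56 limma called none (0.0903% of all genes), and the median was -0.38. An unadjusted p under 0.05 was held by 17, 16 of them lower, against 14.2% of all genes. Ccdc40 gave -0.36 ± 0.09 (adjusted p = 0.176) and Dnah5 -0.55 ± 0.17 (adjusted p = 0.261). The day 56 median was -0.26 without the 2 arrays that stood apart. At days 14, 28 and 56 each region lay below its own day 0 array in 18, 20 and 22 genes. Of all genes 16.7%, 18.3% and 17.6% did so. The arrays lay below day 0 without overlap in 9, 1 and 8 genes, against 7.1%, 5.54% and 6.43% of all genes.

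The sham lungs at day 56 also lay below day 0. Of the 38 genes 36 were negative with a median of -0.34, and limma called none (0.381% of all genes). An unadjusted p under 0.05 was held by 14, against 9.31% of all genes. In 30 genes each region was below its own day 0 array, against 19.1% of all genes, and in 5 the arrays did not overlap, against 6.84%. Dnah5 read 8.43, 7.91 and 8.27 after sham, below all its day 0 arrays, a difference of -0.76 ± 0.17 (adjusted p = 0.0748). Hydin read 8.16, 7.76 and 8.02, again below all day 0 arrays, and gave -0.79 ± 0.25 (adjusted p = 0.25). Ccdc40 read 7.49, 7.28 and 7.51, without overlap, and gave -0.43 ± 0.09 (adjusted p = 0.0664). The p-values are adjusted within each comparison, so a difference of the same size can be called in 1 comparison and not in another. Dnah5 was called at day 7 at -0.75 and not after sham at -0.76. Ccdc40 was called at day 3 at -0.44 and not after sham at -0.43. Counts of called genes therefore do not compare the size of the change between conditions. Tppp3 (-0.08 ± 0.18) and Ccdc113 (-0.08 ± 0.11), both called at day 7, were not called after sham. The sham count was 5 without the 2 arrays that stood apart, Ccdc40, Dnah5, Dnah6, Hydin and Lrriq1. It was 2 without the day 7 cardiac lobe and 1 without the day 7 whole lung. In these fits 1.72%, 0.707% and 0.371% of all genes were called in either direction. All comparisons with day 0 share its 3 arrays.

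**Figure D4:**
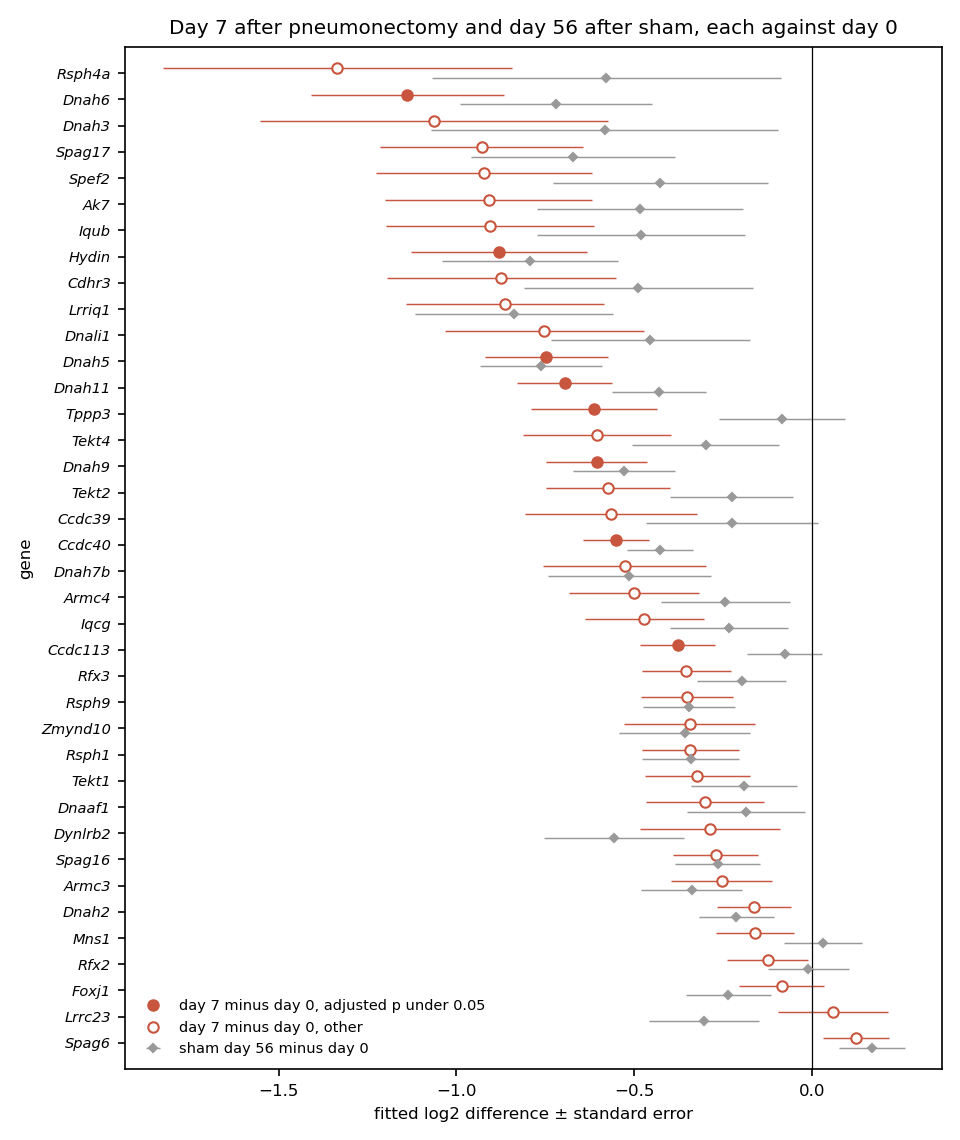
Fitted log2 difference from day 0 with its standard error (horizontal axis) for each of the 38 genes (vertical axis), at day 7 after pneumonectomy (circles, filled where the adjusted p was under 0.05) and at day 56 after sham (grey diamonds). In each of these comparisons 36 of 38 genes lie below 0, and both use the same day 0 arrays.

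With sham as the reference limma called no cilium gene at any day. At day 3, when 7.67% of all genes were called, 23 of 38 were negative and the median was -0.03. An unadjusted p under 0.05 was held by 2, against 18.1% of all genes. Lrrc23, of the radial spoke, read 7.92, 8.22 and 8.36 at day 3 and 7.96, 7.51 and 7.77 after sham. The cardiac lobe and whole lung were the higher ones, and the difference was 0.42 ± 0.15 (adjusted p = 0.123). Ccdc113 gave -0.23 ± 0.11 (adjusted p = 0.264). At day 3, 2 were called without the 2 arrays that stood apart, Lrrc23 higher and Tppp3 lower, and 1 was called without the day 3 medial lobe or without the day 7 cardiac lobe, beside 13.3%, 8.13% and 10.6% of all genes. At day 7, when 4.52% of all genes were called, 31 were negative and the median was -0.14. An unadjusted p under 0.05 was held by 3, against 19.3% of all genes. Tppp3 read 12.28, 12.34 and 12.13 after sham, and its difference at day 7 was -0.53 ± 0.18 (adjusted p = 0.108). Ccdc113 gave -0.30 ± 0.11 (adjusted p = 0.127). At day 7 the count was 1 without the day 7 medial lobe or without the day 7 whole lung (3.79% and 8.15% of all genes), and without the 2 arrays that stood apart the median was 0.02 with 17 genes negative.

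At the later days most genes lay near the sham level. At day 14 limma called none (0.0652% of all genes), 1 had an unadjusted p under 0.05 and the median was 0.04, with Mns1 (-0.25 ± 0.11, adjusted p = 0.89) and Spag6 (-0.17 ± 0.09, adjusted p = 1) at the smallest p. At day 28 the genes were mostly above sham. Of 38, 7 were negative, the median was 0.13, 5 had an unadjusted p under 0.05 and limma called none (0.186% of all genes). Hydin gave 0.64 ± 0.25 (adjusted p = 0.471) and Dnah5 0.47 ± 0.17 (adjusted p = 0.428). At day 56, the time matched to sham, limma called none (0.336% of all genes), 1 had an unadjusted p under 0.05, 21 were negative and the median was -0.03. Mns1 gave -0.27 ± 0.11 (adjusted p = 0.567) and Rfx3 -0.17 ± 0.13 (adjusted p = 0.765). The median at day 56 was 0.09, with 8 genes negative, when the 2 arrays that stood apart were left out. Against sham 5.42%, 7.64% and 8.18% of all genes had an unadjusted p under 0.05 at days 14, 28 and 56. These comparisons share the 3 sham arrays.

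Between neighbouring days limma called none of the 38 genes. From day 3 to day 7 (0.0652% of all genes called) the median was -0.13 and none had an unadjusted p under 0.05, Rsph4a (-0.80 ± 0.49) and Lrriq1 (-0.45 ± 0.28) having the smallest p. From day 7 to day 14 (0.727%) the median was 0.19, and the 2 genes with an unadjusted p under 0.05 were Dnah11 (0.32 ± 0.13, adjusted p = 0.331) and Dnah6 (0.60 ± 0.27, adjusted p = 0.381). From day 14 to day 28 (0.145%) the median was 0.15, and from day 28 to day 56 (0%) it was -0.17, and in neither step did a gene have an unadjusted p under 0.05. With the 2 arrays that stood apart left out these 4 medians were 0.06, 0.01, 0.15 and -0.03, so the first changed its sign. With all arrays 10.4%, 12.5%, 6.76% and 5.54% of all genes had an unadjusted p under 0.05 in the 4 steps. In the moderated F test over all 7 conditions 2 genes passed, Ccdc40 (adjusted p = 0.0186) and Dnah11 (adjusted p = 0.0241), beside 7.76% of all genes. That count was 7 without the 2 arrays that stood apart, 0 without the day 0 medial lobe or the day 0 whole lung, 1 without the day 3 cardiac lobe or the day 7 medial lobe, 4 without the day 3 medial lobe or the day 56 pneumonectomy whole lung, and 6 without the day 7 whole lung. Of all genes 12.5% passed in the fit with 7 cilium genes, and 5.28% to 9.38% in the others.

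Few cilium genes were called between the lobes and the whole lung, a share not far from that of all genes. Of the 38, 5 (13.2%) were lower in the lobes than in the whole lung, while 8.79% of all genes were called lower. The 5 were 4 dynein heavy chains and Hydin. The median difference of the 38 was -0.07 against 0.01 for all genes, and 26 were negative. An unadjusted p under 0.05 was held by 8 of the 38, a smaller share than the 42.4% of all genes. Dnah5 ranged from 8.10 through a median of 8.41 to 9.09 in the 7 medial lobes, from 7.67 through a median of 8.27 to 8.53 in the 7 cardiac lobes and from 8.27 through a median of 8.79 to 9.28 in the 7 whole lungs. The ranges overlapped, but the mean of the lobes was below the whole lung in 7 of 7 conditions, with a difference of -0.47 ± 0.10 (adjusted p = 0.00281). Hydin gave -0.51 ± 0.14 (adjusted p = 0.0148), lower in 6 of 7 conditions, and Dnah9 -0.33 ± 0.08 (adjusted p = 0.00753), in 7 of 7. Dnah6 gave -0.44 ± 0.15 (adjusted p = 0.0442), a call lost in 15 of 21 cases when 1 array was left out. Dnah2, named here after its value was seen, was the fifth at -0.23 ± 0.06 (adjusted p = 0.0109). With each array centred on its median 11 genes were called lower in the lobes, and 12 with the arrays quantile normalized again. The share of all genes called in either direction was 29.1% on the deposited scale, 32.4% after centring and 17.2% after quantile normalization. Of 24 club cell markers 8 were lower and 1 higher in the lobes, of 8 goblet cell markers 6 were lower and 1 higher, and of 14 alveolar type II markers 12 were higher, as were 20.3% of all genes. The arrays of the regions also differed as arrays. The small RNA mean ran from 7.768 to 9.839 in the whole lungs and from 6.903 to 8.153 in the lobes. The interquartile range ran from 3.132 to 3.578 in the whole lungs and from 3.341 to 3.721 in the lobes. The part of airway and alveolar content, or of array and RNA quality, in the differences of these 5 genes was not tested.

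The cardiac lobe lay below the medial lobe for 37 of 38 genes, with a median of -0.28 against 0.02 for all genes. Limma called none (0.0903% of all genes), and 23 had an unadjusted p under 0.05, against 9.42% of all genes. Armc3 ranged from 6.65 through a median of 6.92 to 7.05 in the cardiac lobes and from 6.78 through a median of 7.19 to 7.59 in the medial lobes, with a difference of -0.33 ± 0.09 (adjusted p = 0.237). Tekt2 was lower in the cardiac lobe in 7 of 7 conditions, with a difference of -0.39 ± 0.11 (adjusted p = 0.256). The early response, days 3 and 7 against day 0 and sham, was also compared between regions. Between the cardiac and the medial lobe limma called none (0% of all genes). Of the 38, 1 had an unadjusted p under 0.05 (4.35% of all genes), Rfx3 at 0.52 ± 0.19. Without the day 3 cardiac lobe 1 was called, beside 2.2% of all genes. Between the whole lung and the lobes limma called none (0% of all genes) and none had an unadjusted p under 0.05 (2.24% of all genes). The response differed by 1.31 ± 0.71 for Dnah3 and by a median of 0.32 over the 38 genes, of which 4 were negative.

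Dnah3 and Spef2 had many probe sets each. The labels name a 3′ amplification kit, and how far each probe set lies from the end of its transcript was not used here. Dnah3 had 33, with mean levels from 4.45 to 9.19, and all 33 were lower at day 7 than at day 0, with differences from -1.23 to -0.18 and a median of -0.76. Spef2 had 22, with all differences between -1.46 and -0.31 and a median of -0.93. The day 7 cardiac lobe was the lowest array for 28 of the 33 and 17 of the 22. After sham all probe sets of both genes were below day 0 as well, with medians of -0.57 and -0.58. Probe sets of a gene share the RNA of the same arrays and are no replicates.

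**Figure D5:**
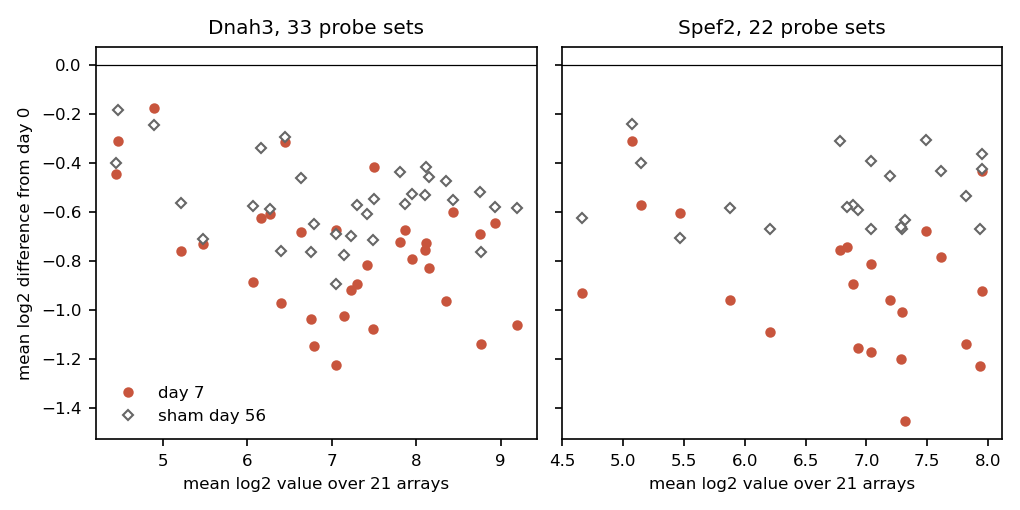
Mean log2 difference from day 0 over the 3 regions (vertical axis) of each probe set of Dnah3 (33) and Spef2 (22), against its mean level over 21 arrays (horizontal axis), at day 7 after pneumonectomy (filled circles) and at day 56 after sham (open diamonds). Every point lies below 0, with day 7 medians of -0.76 and -0.93 and sham medians of -0.57 and -0.58.

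Outside the list, the 10 named genes most like the mean of the cilium genes over the 21 arrays were Saxo2 (0.977), Lrrc6 (0.974), Wdr63 (0.972), Ttc29 (0.971), Vwa3a (0.970), Spag6l (0.969), Rabl2 (0.967), Cfap206 (0.966), Eno4 (0.965) and Cfap69 (0.964). Of these, 5 stand on the wider lists of cilium genes read here, among them the dynein assembly factor Lrrc6 and the central pair gene Cfap69. Of the 19900 genes outside the 38, 0.688% had a correlation above 0.9, and 40 of the 145 other cilium genes did.

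The other genes of the axoneme were read from lists. Of all genes 2.73% fell and 3.97% rose at day 3 against day 0, and 4.97% fell and 3.73% rose at day 7. Of 17 further axonemal dynein subunits 1 fell at day 3 and 3 at day 7 against day 0, Dnaic1, an outer arm intermediate chain (-0.74 ± 0.20), Dnah7a (-0.63 ± 0.12) and Dnah7c (-0.61 ± 0.18), and none rose. Dnah7a and Dnah7c are the near-identical relatives of Dnah7b, so their calls may not be separate. Of 16 assembly and docking factors 2 fell at day 3 and 1 at day 7, Ccdc114, of the docking complex (-0.45 ± 0.12). Of 28 further radial spoke, central pair and nexin genes 2 fell at day 3 and 6 at day 7, among them Iqca (-1.17 ± 0.29), Ttc29 (-0.82 ± 0.23) and Tcte1 (-0.81 ± 0.24), with a day 7 median of -0.55. Rsph14 of this list was the 1 gene of these lists called after sham (-0.97 ± 0.18). Of 28 further microtubule and inner proteins none was called at day 3 and 3 fell at day 7, Cfap53 (-0.73 ± 0.18), Tekt5 (-0.62 ± 0.17) and Enkur (-0.54 ± 0.16). Genes shared with non-motile cilia were read too. Of 29 intraflagellar transport genes 2 fell and 1 rose at day 3, and 3 fell at day 7, Wdr19, Dync2h1 and Ttc30b, with a median of -0.25. Of 7 BBSome genes 1 fell at day 7, Bbs9 (-0.62 ± 0.18). None of these 6 lists had a call at day 7 against sham.

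Of 20 regulators of ciliogenesis 6 rose and 1 fell at day 3, and 3 rose and 2 fell at day 7. Of all genes 3.97% rose at day 3 and 3.73% at day 7. Ccno (1.14 ± 0.24) and Mcidas (1.05 ± 0.19), both needed to make the many basal bodies of multiciliated cells, rose at day 3, as did Stil (1.21 ± 0.26), a centriole duplication factor of dividing cells. At day 7 Mcidas (0.90 ± 0.19) was still higher than at day 0, and Ulk4, a kinase-family gene, was lower (-0.74 ± 0.16). Against sham 5 of the 20 rose at day 7, as did 2.37% of all genes, among them Ccno (1.09 ± 0.24), Stil (1.09 ± 0.26) and Mcidas (0.90 ± 0.19). Mitosis genes rose at the same times, 24 of 24 at day 3 and 23 of 24 at day 7 against day 0, and the part of dividing cells in the rise of the regulators was not tested.

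Markers of neighbouring cells were read in the same fit, in which 4.97% of all genes fell and 3.73% rose at day 7 against day 0. Of 24 club cell markers 4 fell and 1 rose at day 7 against day 0, with a median of -0.34, among them Cyp2b10 (-1.06 ± 0.19) and Pon1 (-1.06 ± 0.31). Their mean level was 11.13, 10.84 and 11.29 in the 3 regions at day 0 and 11.05, 10.20 and 11.06 at day 7, so that the day 7 cardiac lobe was the lowest array for this list as for the cilium genes. Of 13 alveolar type I markers 4 fell at day 7, and of 14 alveolar type II markers none was called. Of 8 goblet and mucous cell markers 2 rose, Clca1 (3.18 ± 0.83) and Muc5ac (1.79 ± 0.34), and their mean level went from 6.70, 6.81 and 7.30 at day 0 to 7.79, 8.21 and 7.97 at day 7. None of 9 basal cell markers was called, 1 of 10 neuroendocrine markers fell (Resp18), 2 of 13 airway smooth muscle and cartilage markers rose (Sox9 and Col2a1) and none of 10 cardiac muscle markers was called. The part of airway content, mucous change or array quality in the fall of the cilium genes was not tested.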

How the data were processed

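RNA of 21 samples was hybridised to Affymetrix arrays, and the deposited values are log2 intensities per probe set that the authors made with RMA, per the submitters' processing notes (version not given in the sources used here). Of 35556 probe sets 21789 carried 1 gene symbol, 1621 several and 12146 none. Those with 1 symbol gave 19938 genes, each read from its brightest probe set. With no counts there is no depth; the number of arrays limits the precision. Differences were fitted with limma 3.58.1 in R 4.3.3 (lmFit with condition and region, eBayes, Benjamini-Hochberg over all genes, threshold 0.05) on all 21 arrays, leaving 12 residual degrees of freedom. The labels give no shared animal; region, which each condition holds once, was the block. Differences between regions in the early response came from a limma fit on phases. The fit was tested on simulated data. Values per array are given for Foxj1 and for up to 8 called genes with the largest difference at day 7. In each other comparison they are given for up to 4, or for the 2 with the smallest p where none was called. Those of Armc4, Dnah3, Spag17, Spag6 and Rsph4a were added after their values were seen. Those of Hydin and Dnah6 at day 28 and of Hydin after sham lie outside this rule too. From each other list up to 3 called genes are named, and outside the list the 10 with the most similar profile. Alternatives were no region block, only the 6 arrays compared, lobes alone, median centring, quantile normalization, the mean of all probe sets, the dimmest genes left out, a trend and robust prior, and each array left out; the 2 settings that leave out 2 arrays were chosen after seeing the data. The cilium genes and the lists were chosen with earlier results of these data known. Promoter sequences came from RefSeq (GRCm38.p6). Tables and figures were made with Python 3.11.15, pandas 2.3.3, numpy 2.4.6 and matplotlib 3.10.9.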

Additional observations from a re-analysis of the deposited data

Results flagged for a closer look

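Of 117 values tested, the mean and each gene in each of the 3 regions, 25 had a highest or lowest array that stood off from the next by more than Dixon's critical share of the range of the 7 arrays (about 1 in 20 by chance for a single value). The values are not independent, since those of a region share 7 arrays and the genes move together, so the count is no test. In the cardiac lobe 20 of the 25 were 1 array, that of day 7, lying lowest. The mean of the 38 genes was 7.09 there, with 7.72 next. Rsph4a read 6.92 (next 9.32), Dnah3 6.95 (next 8.87), Cdhr3 8.18 (next 9.43), Iqub 6.1 (next 7.36), Dnah6 6.9 (next 8.1), Dnali1 7.71 (next 8.9) and Ak7 7.63 (next 8.78). The others were Armc4 at 5.56, Dnah2 at 6.31, Dnaaf1 at 6.97, Spag17 at 5.88, Spef2 at 6.63, Ccdc39 at 7.17, Tekt1 at 7.12, Tekt2 at 6.6, Tekt4 at 7.52, Ccdc113 at 6.77, Lrriq1 at 6.26 and Tppp3 at 11.14. In the medial lobe the day 0 array lay highest for Rfx2 at 8.22, Dnah2 at 6.9, Rsph1 at 9.17 and Ak7 at 9.73. Lrrc23 was highest in the day 3 cardiac lobe, at 8.22.

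Rfx2 stood above its day 0 array at every day after pneumonectomy in the whole lung, by a mean of 0.23, and below it in the medial lobe, with a mean difference of -0.31. That difference between regions was not tested.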

How the results depend on the processing

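The 15 called differences of named cilium genes were repeated 453 times under other settings; all kept their direction, 355 kept their call and 98 lost it. Foxj1 at day 7 was called in none of its 31 repeats. Its direction changed in 4 of them, at 0.0211 after quantile normalization, 6e-04 without the 2 arrays that stood apart, 0.0889 without the arrays at the extremes of the cilium mean and 0.0047 without the day 7 cardiac lobe (leaving out single arrays, -0.2057 to 0.0047). With no replicate block for region, 1 gene was called lower at day 3, 2 at day 7 and 0 in the test over all conditions. With only the 6 arrays compared, 0 were called at day 7 and 4 after sham. In the lobes alone 1 was called at day 3, 1 at day 7 against sham and 1 over all conditions. Centring gave 11 and quantile normalization 12 in the lobes against the whole lung. Without the 2 arrays that stood apart the counts against day 0 were 16 at day 3, 4 at day 7, 3 at day 14 and 5 after sham, with 2 at day 3 against sham and 7 over all conditions. Without the arrays at the extremes they were 0 at day 7, 1 at day 3 against sham and 0 over all conditions. Leaving out each array in turn gave 1 to 9 at day 3, 2 to 21 at day 7, 0 to 2 after sham, 0 to 1 at days 3 and 7 against sham, 4 to 5 in the lobes against the whole lung, 0 to 6 over all conditions and 0 to 1 for the early response between lobes. The causes were not tested.

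With 3 arrays per condition, each from another region, a change that differs between regions counts as error. Day 0 and the days after surgery differ in time as well as in surgery, which cannot be told apart in the comparisons with day 0.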
